A study of Mus musculus with 18 samples.

Results

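Collagens and laminins are the main structural proteins of the extracellular matrix. Collagen chains wind into trimers that build the fibrils of connective tissue, the sheet of collagen IV under epithelium and endothelium, or smaller networks and membrane anchors. Laminins are made of an alpha, a beta and a gamma chain and form the second sheet of the basement membrane, to which lung epithelial, endothelial and muscle cells attach. Rows of the gene table were taken where the gene name began as a collagen chain (Col, a number, a, a number) or as a laminin chain (Lama, Lamb or Lamc and a number). This matched 37 of the 13384 rows. One of them, Col4a3bp, carries a collagen name but encodes a ceramide transfer protein, and it was set aside. The remaining 36 genes were 26 collagen and 10 laminin chains, of which 6 were fibrillar collagens, 18 basement membrane chains and 12 other collagens. RefSeq lists 55 mouse protein-coding genes of this name pattern, and the other 19 were not analysed here.

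The libraries were made from polyadenylated RNA of mouse lung and fall into 3 groups of 3. The BMSC-treated group had the disease model, cigarette smoke together with cigarette smoke extract injected into the abdominal cavity, and then 4000000 BMSCs (mesenchymal stem cells, in the words of the series title) in 100 µl of PBS by the tail vein. The COPD model group had the same exposure and PBS, and the control group had PBS alone. The labels used here give no strain, sex, age or time after treatment, and do not say that the libraries of a group came from separate mice, so a p-value here speaks of the spread among libraries alone. Values are FPKM, fragments per kilobase of transcript scaled to the library's total, as the authors deposited them, and the sequencing depth behind them is unknown.

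The libraries differed in make-up before any chain was considered. Mitochondrial genes took 92.2%, 70.8% and 55.6% of all FPKM in the BMSC-treated libraries, 30.0%, 28.3% and 23.9% in the COPD model libraries and 89.3%, 65.1% and 46.9% in the control libraries. Of the 13384 genes, 1193 were listed at 0 in BMSC-treated 1 and 1038 in control 1, against 107 to 201 in the other libraries. FPKM values are shares of a library, so most log2 differences of chains below are also given after rescaling. Rescaling brought every library to the same sum outside the mitochondrial genes and Scgb1a1 (the club cell secretory protein). A separation of groups that rescaling ended is named for the chains.

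The 4 sequences below are the stretches before the RefSeq gene start of chains discussed together later, cut where they would enter an annotated gene. Col1a2 and Col3a1, chains of the main fibrillar collagens, kept a similar ratio across the libraries. Col4a5 and Col4a6 are a head-to-head pair on the X chromosome whose starts lie 1274 bases apart. All are from RefSeq on GRCm38.p6, printed 5′ to 3′ on the strand of the gene: Col1a2 at chr6:4505368-4505617 (plus strand), Col3a1 at chr1:45311288-45311537 (plus), Col4a5 at chrX:141475169-141475369 (plus) and Col4a6 at chrX:141474096-141474326 (minus). Capitals mark 3 short motifs searched on both strands: CCAAT (the CCAAT box), GGGCGG (the GC box) and TATAAA (the TATA box), which do not overlap here.
Col1a2: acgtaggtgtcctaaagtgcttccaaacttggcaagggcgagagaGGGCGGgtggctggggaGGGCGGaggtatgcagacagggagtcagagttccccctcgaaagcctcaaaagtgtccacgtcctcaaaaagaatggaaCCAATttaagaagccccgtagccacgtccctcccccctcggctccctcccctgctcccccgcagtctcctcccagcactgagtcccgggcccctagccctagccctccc
Col3a1: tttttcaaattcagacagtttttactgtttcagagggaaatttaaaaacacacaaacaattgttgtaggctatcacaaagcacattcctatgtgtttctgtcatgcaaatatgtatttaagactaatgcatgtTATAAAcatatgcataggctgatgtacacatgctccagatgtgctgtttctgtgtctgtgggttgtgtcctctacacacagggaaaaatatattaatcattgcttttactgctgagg
Col4a5: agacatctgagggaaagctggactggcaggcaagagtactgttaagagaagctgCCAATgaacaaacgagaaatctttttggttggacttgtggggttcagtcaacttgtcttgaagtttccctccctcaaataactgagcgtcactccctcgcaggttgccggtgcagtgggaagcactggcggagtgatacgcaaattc
Col4a6: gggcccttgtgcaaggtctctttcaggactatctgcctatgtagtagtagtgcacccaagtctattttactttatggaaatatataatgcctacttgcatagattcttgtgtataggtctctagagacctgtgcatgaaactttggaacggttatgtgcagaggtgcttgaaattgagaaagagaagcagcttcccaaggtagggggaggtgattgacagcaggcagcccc

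The Col1a2 stretch held 1 CCAAT box and 2 GC boxes, the Col3a1 stretch 1 TATA box, the Col4a5 stretch 1 CCAAT box and the Col4a6 stretch none of these letters. A promoter window of 300 bases (250 before the start and 50 after it) was on hand for 26 of the 36 chains. Of these, 8 held a CCAAT box (30.8%), 16 a GC box (61.5%) and 3 a TATA box (11.5%), where the windows of all 27025 RefSeq genes held them in 41.1%, 38.2% and 15.7%. The motif letters describe the sequence only, and no binding was measured.

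Most of the chain FPKM came from a few genes. Averaged over the 9 libraries, 6 chains exceeded 10 FPKM, and the same 6 were at 1 FPKM or more in every library: Col1a1 at 27.5, Col4a1 at 20.8, Col1a2 at 19.2, Col3a1 at 17.9, Col4a2 at 16.5 and Col6a1 at 13.4 FPKM. Col1a1, Col1a2 and Col3a1 encode the chains of collagens I and III, the bulk of tissue fibrils, Col4a1 and Col4a2 the common collagen IV trimer, and Col6a1 a chain of the beaded microfibrils. Their SDs over the 9 libraries were 10.4 to 19.8 FPKM, wider than the gaps between neighbours in this order. Next came the transmembrane collagen Col23a1 at 9.32 FPKM and the laminin beta chains Lamb2 at 6.44 and Lamb1 at 5.57 FPKM. At the low end, Col4a6, Lamc3 and Col20a1 were listed at 0 in BMSC-treated 1, and Col20a1 in control 1 as well.

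**Figure D1:**
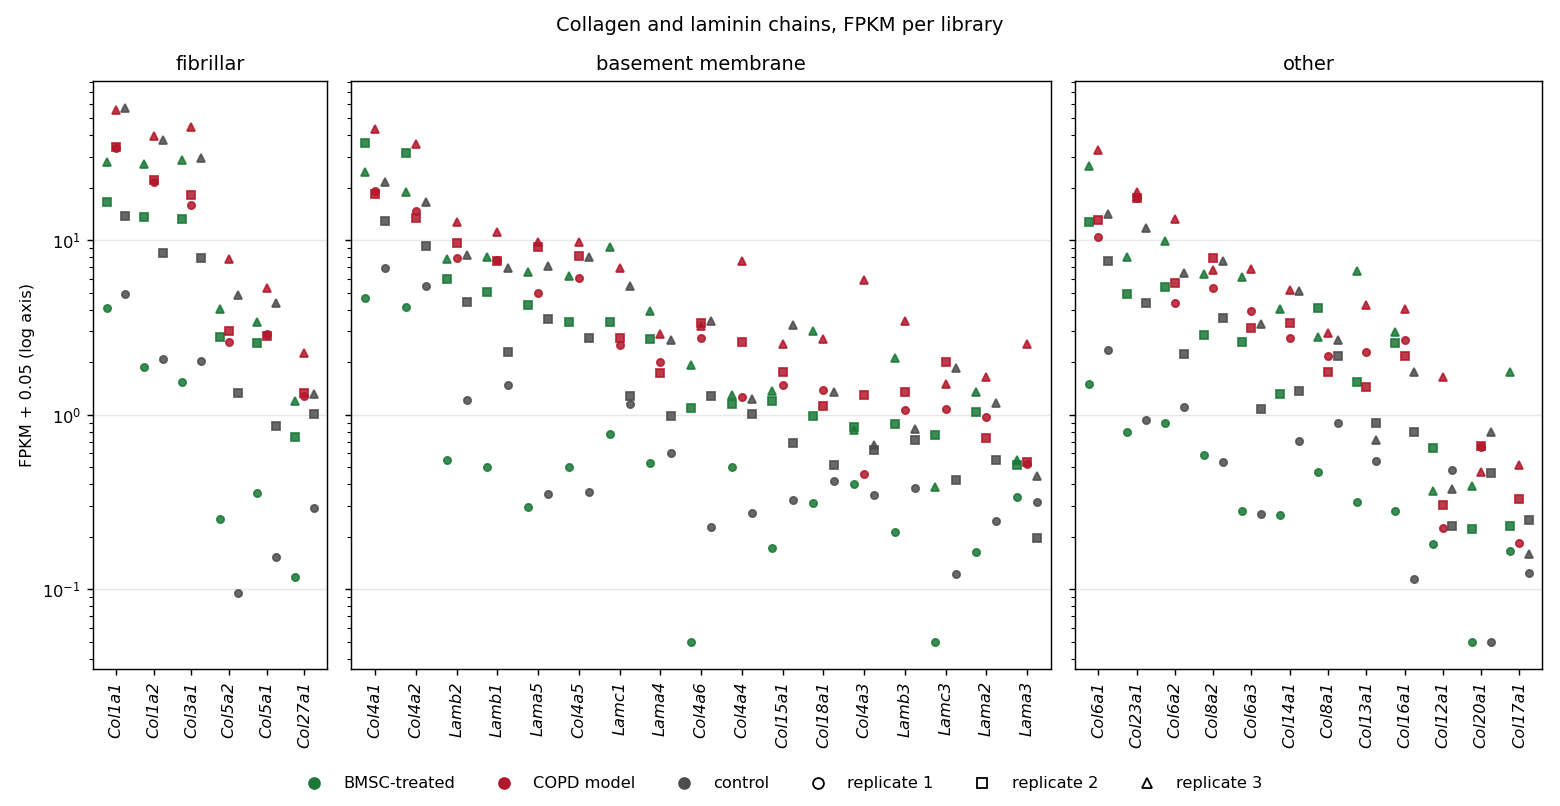
FPKM of the chains reported by name in the 9 libraries, on a log axis after adding 0.05, by class and in order of mean level; colour gives the group and marker shape the replicate number. BMSC-treated 1 and control 1 (circles) lie at the bottom for nearly every chain and COPD model 3 (red triangles) at the top for most.

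The spread between libraries was shared by nearly all chains. COPD model 3 held the highest value of 24 of the 36 chains, and 35 had their lowest value in BMSC-treated 1 or control 1. After rescaling these counts were 17 and 24. Summed over the 36 chains, FPKM was 27.0, 189 and 267 in BMSC-treated libraries, 207, 225 and 421 in COPD model libraries and 36.6, 101 and 279.99 in control libraries. The 3 groups overlapped in this sum, and a group mean depended on its first library: the BMSC-treated mean was 161 ± 122 FPKM and the control mean 139 ± 126 FPKM (SD, n = 3 each), against 228 and 191 FPKM without the first library of each.

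Fibrillar chains made up a nearly constant part of the chain FPKM in the COPD model. Their share was 29.3%, 26.0% and 34.7% in BMSC-treated libraries, 37.4%, 36.04% and 36.7% in COPD model libraries and 25.4%, 32.6% and 48.0% in control libraries. The COPD model shares lay above all BMSC-treated ones and within the range of the controls. Basement membrane chains took 51.5%, 53.7% and 37.1% in BMSC-treated libraries, 37.5%, 38.9% and 40.3% in COPD model libraries and 54.1%, 43.3% and 32.7% in control libraries, which overlap. Other collagens took 19.2% to 28.2% in all 9 libraries.

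**Figure D2:**
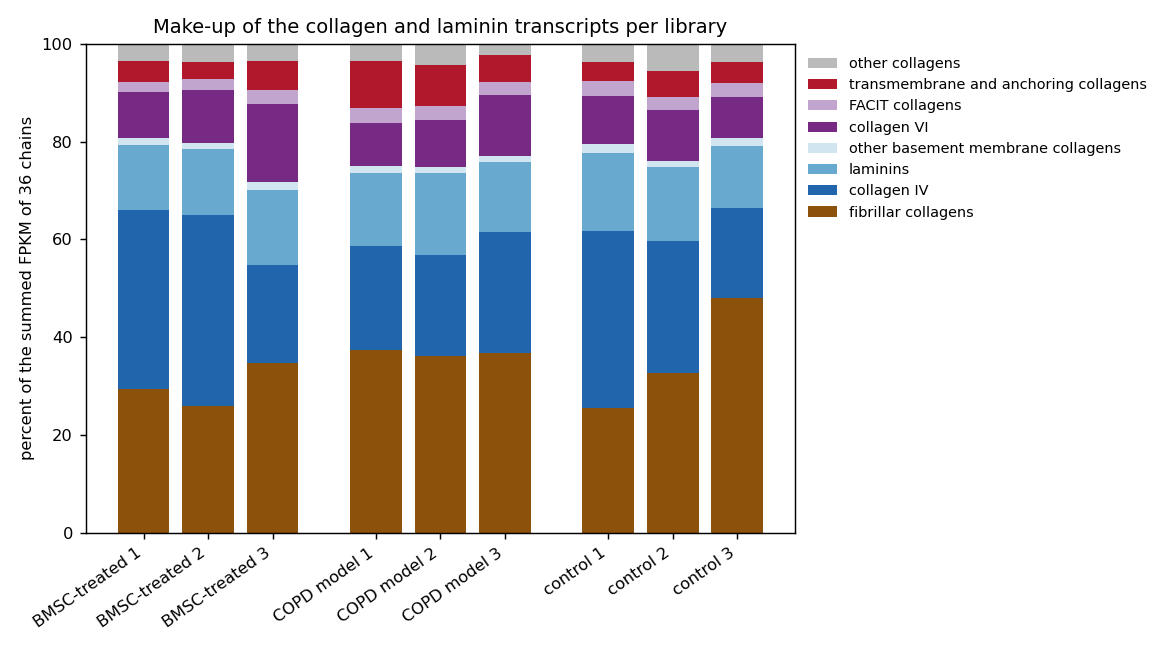
Stacked shares (percent of the summed FPKM of the 36 chains) of fibrillar collagens, collagen IV, laminins and the remaining subclasses, 1 bar per library. The fibrillar share is 36.04% to 37.4% in the COPD model libraries, while it runs from 26.0% to 34.7% in BMSC-treated and from 25.4% to 48.0% in control libraries.

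The first comparison asked how the smoke model changed lung expression. For testing, 31 of the 36 chains and 11765 genes in all reached 1 FPKM in at least 3 of the 9 libraries, and no chain passed through COPD model libraries alone. All 31 chains had a higher mean log2(FPKM + 1) in the COPD model than in control, but so did 11105 of the 11765 tested genes. The median log2 difference, COPD model minus control, was 1.04 over the chains and 0.66 over all tested genes. Rescaling lowered these to 0.57 for the chains and 0.14 for all genes, and left 30 of 31 chains higher. By class the unscaled median was 1.15 for the 6 fibrillar chains, 0.89 for the 16 basement membrane chains and 1.12 for the 9 other collagens.

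No chain passed limma's test at an adjusted p under 0.05, where 9 of 11765 genes (0.0765%) did; the lowest adjusted p of a chain was 0.514. A looser rule took genes with limma p below 0.05 before adjustment and a difference of 1.5-fold or more. By it 7 chains were higher in the COPD model and none lower, beside 6.36% of all genes higher and 0.229% lower. All 3 COPD model libraries lay above all 3 control libraries for 7 of the 31 chains, near the 23.7% of all genes, and below for none (0.314% of genes). After rescaling, 3 chains met the p rule as higher and none as lower (2.38% and 1.6% of genes), and 4 lay wholly above control and none wholly below (6.94% and 4.08%). Col23a1, Col16a1 and Lamb1 were among the 4, and Lamb1 did not meet the p rule. The count of 7 rested on single libraries: it was 1 without control 1 or without COPD model 3, 3 without control 2, 21 without control 3, 12 without BMSC-treated 1 and 11 without BMSC-treated 3. Shares of all genes in these left-out fits are not given. With array quality weights limma called 28 of the 31 chains and 7497 of the 11765 genes. However, these weights were 7.02, 6.81 and 8.91 for the second library of the BMSC-treated, COPD model and control groups. They were under 1 for each other library.

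Col23a1, a collagen that spans the cell membrane, stood first by p. It had 17.5, 17.3 and 18.8 FPKM in COPD model libraries, against 0.878, 4.32 and 11.6 FPKM in control libraries. The groups did not overlap, and the COPD model libraries were close to each other while the controls spread widely. The log2 difference was 1.91 ± 0.71 (SE; limma adjusted p = 0.514), and 1.34 after rescaling, when the COPD model libraries stood at 13.3, 13.5 and 13.4 and the controls at 2.08, 4.55 and 9.69 rescaled FPKM. As a share of the chain FPKM it took 8.44%, 7.70% and 4.46% in COPD model libraries and 2.40%, 4.26% and 4.15% in control libraries. Of the 36 chains it alone had a larger share in all 3 COPD model libraries than in each of the 6 others, by a narrow margin in COPD model 3.

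Chains of epithelial basement membranes followed. Col4a4, which with Col4a3 and Col4a5 forms the collagen IV trimer of the alveolus and the kidney glomerulus, had 1.21, 2.54 and 7.55 FPKM in COPD model libraries and 0.224, 0.963 and 1.18 FPKM in control libraries. COPD model 3 was far above the rest and COPD model 1 barely above control 3. The log2 difference was 1.22 ± 0.47 (limma adjusted p = 0.514), and 0.86 after rescaling, when the groups overlapped.

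Col4a3 and the laminin alpha chain Lama3 were also highest in that library. Col4a3 had 0.409, 1.24 and 5.86 FPKM in COPD model libraries and 0.295, 0.576 and 0.621 FPKM in control libraries. Lama3 had 0.472, 0.489 and 2.48 FPKM in COPD model libraries and 0.266, 0.147 and 0.394 FPKM in control libraries. Neither reached 1 FPKM in 3 libraries, so neither was tested, and COPD model 3 was far above the rest in both. Lamb3, a laminin beta chain of epithelium, had 1.01, 1.29 and 3.39 FPKM in COPD model libraries and 0.328, 0.663 and 0.781 FPKM in control libraries, which did not overlap (log2 difference 0.79 ± 0.41; limma adjusted p = 0.514). After rescaling the groups of Lamb3 overlapped and the difference was 0.43. Col4a5 had 6.01, 8.09 and 9.74 FPKM in COPD model libraries and 0.311, 2.69 and 7.97 FPKM in control libraries, and the groups overlapped.

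Among the collagens on fibril surfaces (FACITs), Col16a1 had 2.62, 2.13 and 3.98 FPKM in COPD model libraries, against 0.0643, 0.744 and 1.70 FPKM in control libraries. All COPD model libraries were above all controls, also after rescaling, with a log2 difference of 1.16 ± 0.49 (limma adjusted p = 0.514), and of 0.87 after rescaling. Col14a1, the other FACIT with a high level, had 2.69, 3.30 and 5.14 FPKM in COPD model libraries and 0.659, 1.32 and 5.05 FPKM in control libraries. Its groups overlapped through control 3 (log2 difference 0.69 ± 0.56, and 0.22 after rescaling). Col12a1 and Col20a1 stayed under 1 FPKM in all 9 libraries, apart from Col12a1 at 1.58 FPKM in COPD model 3.

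The abundant fibrillar collagens did not separate the groups. Col1a1 had 33.6, 33.9 and 55.6 FPKM in COPD model libraries, against 4.89, 13.8 and 57.2 FPKM in control libraries. Col1a2 had 21.4, 21.9 and 39.4 FPKM in COPD model libraries and 2.02, 8.43 and 37.2 FPKM in control libraries. Control 3 was above all 3 COPD model libraries for Col1a1 and within their range for Col1a2, while the other controls were far lower, and the log2 differences were 1.25 ± 0.79 for Col1a1 and 1.42 ± 0.79 for Col1a2 (limma adjusted p = 0.514 for each), which became 0.55 and 0.77 after rescaling. Col3a1 followed Col1a2, at 15.9, 18.2 and 44.2 FPKM in COPD model libraries and 1.99, 7.85 and 29.6 FPKM in control libraries. Col5a1, Col5a2 (chains of collagen V, which limits fibril width) and Col27a1 averaged 1.58 to 4.42 FPKM in the COPD model and 0.818 to 2.05 FPKM in control, and each overlapped.

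The widely made basement membrane chains also overlapped. Col4a1 had 19.1, 18.3 and 43.1 FPKM in COPD model libraries, against 6.86, 12.7 and 21.6 FPKM in control libraries, a log2 difference of 0.94 ± 0.77. Its partner Col4a2 had 14.6, 13.4 and 35.5 FPKM in COPD model libraries and 5.40, 9.24 and 16.5 FPKM in control libraries (0.94 ± 0.76). After rescaling the differences were 0.22 and 0.24. Control 3 exceeded 2 of the 3 COPD model libraries for both. Lamb2 averaged 10.04 ± 2.48 FPKM in COPD model and 4.58 ± 3.52 FPKM in control, and Lamb1 averaged 8.76 ± 1.99 FPKM in COPD model and 3.502 ± 2.93 FPKM in control (SD, n = 3 each). Lamb1 was higher in every COPD model library than in any control (log2 difference 1.29 ± 0.67), and Lamb2 overlapped (1.19 ± 0.69); rescaled, these differences were 0.70 and 0.61, and Lamb1 was still without overlap. The basement membrane zone collagens Col15a1 and Col18a1, of which Col18a1 is the source of endostatin, had log2 differences of 0.46 ± 0.44 and 0.65 ± 0.43 (0.13 and 0.30 rescaled), with overlap.

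Collagen VI and the short-chain collagens completed the picture. Col6a1 averaged 18.7 ± 12.2 FPKM in COPD model and 7.97 ± 5.90 FPKM in control, and Col6a2 averaged 7.71 ± 4.79 FPKM in COPD model and 3.21 ± 2.81 FPKM in control (SD, n = 3 each). Both overlapped, with log2 differences of 1.22 ± 0.75 and 1.12 ± 0.67, which were 0.57 each after rescaling. Col8a1, a network collagen of vessel walls, had the smallest difference of the 31 chains, 0.22 ± 0.54, which turned to -0.24 after rescaling; its partner Col8a2 had 0.96 ± 0.65 (0.49 rescaled). Col13a1, a membrane collagen also used as a fibroblast marker, had 2.24, 1.38 and 4.20 FPKM in COPD model libraries and 0.489, 0.849 and 0.670 FPKM in control libraries, without overlap (1.04 ± 0.50; limma adjusted p = 0.514). After rescaling its groups overlapped and the difference was 0.61.

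**Figure D3:**
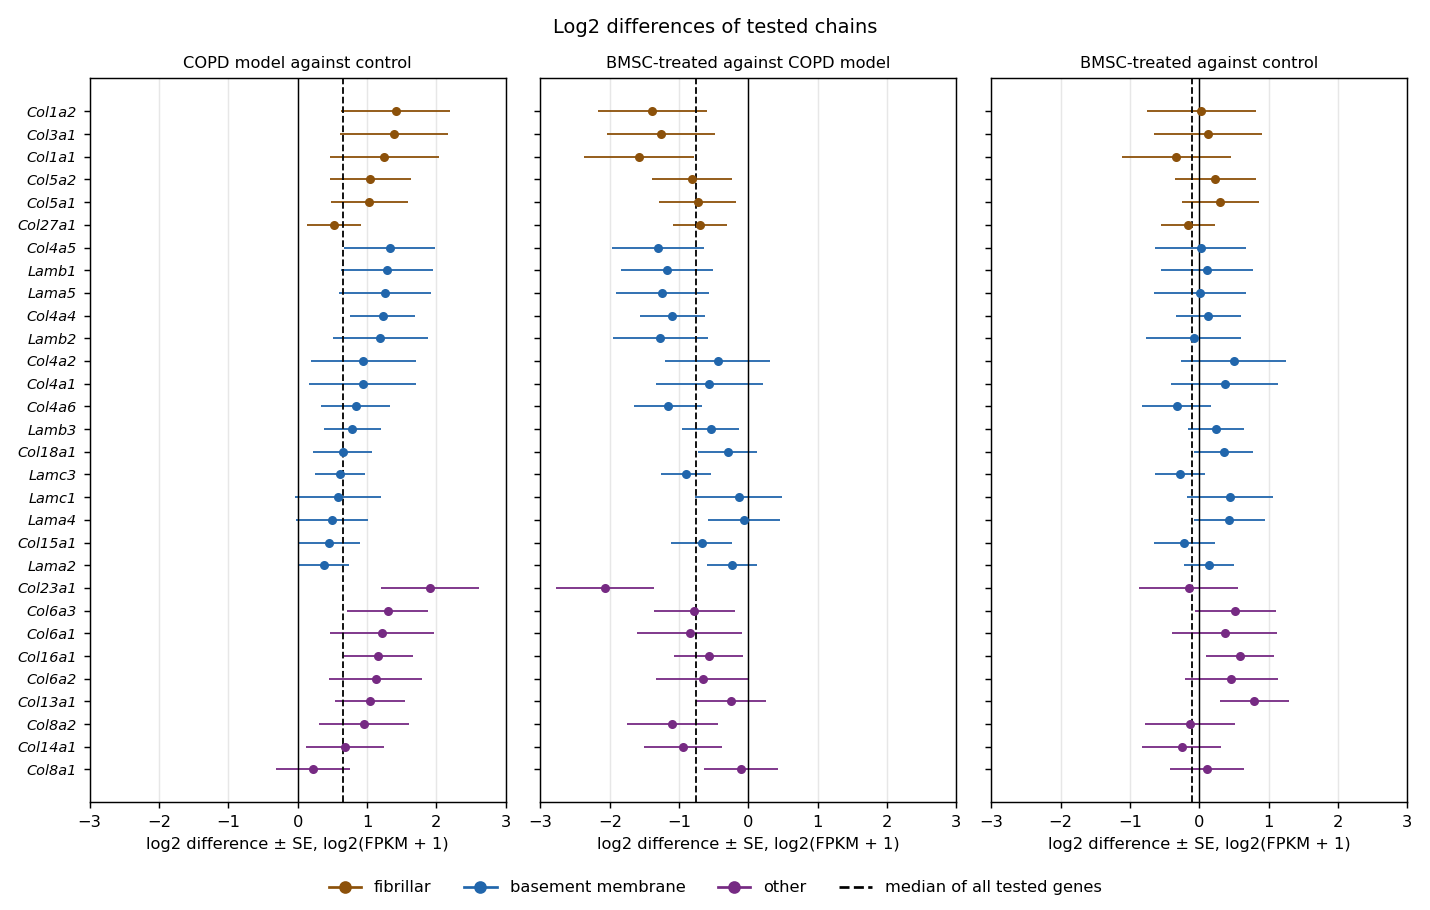
Log2 difference (log2(FPKM + 1), point) ± SE (bar) of the tested chains reported by name in the 3 comparisons, coloured by class, with the median of all 11765 tested genes as a dashed line. Every chain is above 0 in COPD model against control and below 0 in BMSC-treated against COPD model (30 of 31 and 23 of 31 after rescaling), where the median of all genes is itself 0.66 and -0.75.

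The second comparison asked what the cell injection changed in the model; it shares the COPD model libraries with the first, so the 2 sets of differences are not independent. All 31 chains had a lower mean in BMSC-treated than in COPD model libraries, and so did 11067 of 11765 genes. The median log2 difference, BMSC-treated minus COPD model, was -0.82 over the chains and -0.75 over all genes. After rescaling 23 chains were lower and 8 higher, with medians of -0.38 for the chains and -0.15 for all genes. No chain passed limma's test at an adjusted p under 0.05 (15 genes, 0.127%, did), and the lowest adjusted p of a chain was 0.375.

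By the looser rule 6 chains were lower and none higher, beside 10.8% of all genes lower and 0.306% higher. For 8 of the 31 chains all BMSC-treated libraries lay below all COPD model libraries, against 31% of all genes, and for none above (0.272%). After rescaling 1 chain, Col23a1, met the p rule as lower and none as higher (3.7% and 3.15% of genes). Then 4 chains, Col23a1, Col4a6, Col1a1 and Col27a1, lay wholly below the COPD model and none above (14% and 6.61%). The count of 6 was 10 without control 1, 2 without COPD model 2, 3 without COPD model 3, 1 without BMSC-treated 1 and 20 without BMSC-treated 3, and the count of 8 was 20 without BMSC-treated 3. For these left-out fits too, shares of all genes are not given. Array quality weights called 17 of the 31 chains and 7305 of the 11765 genes, with the weights stated above.

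Col23a1 was again first, at 0.751, 4.86 and 7.92 FPKM in BMSC-treated libraries, against the 17.5, 17.3 and 18.8 FPKM of the COPD model. Each BMSC-treated value was below each COPD model value. The log2 difference was -2.06 ± 0.71 (limma adjusted p = 0.375), -1.38 after rescaling and -1.38 without BMSC-treated 1 and control 1. Its share of the chain FPKM was 2.78%, 2.58% and 2.96% in BMSC-treated libraries, below each COPD model library.

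Next by p came chains with low levels. Lamc3, a further gamma chain, had 0, 0.720 and 0.336 FPKM in BMSC-treated libraries, against 1.03, 1.96 and 1.45 FPKM in COPD model libraries (log2 difference -0.89 ± 0.36; limma adjusted p = 0.375). Col4a6, which joins Col4a5 in the collagen IV of smooth muscle, had 0, 1.05 and 1.87 FPKM in BMSC-treated libraries and 2.69, 3.28 and 3.17 FPKM in COPD model libraries (-1.16 ± 0.49; limma adjusted p = 0.375). Neither pair of groups overlapped. After rescaling Lamc3 overlapped (-0.66) and Col4a6 did not (-0.90). Control 3 reached 1.80 FPKM for Lamc3, in the range of the COPD model, and 3.41 FPKM for Col4a6, above all 3 COPD model libraries. Col4a4 had 0.452, 1.10 and 1.25 FPKM in BMSC-treated libraries and 1.21, 2.54 and 7.55 FPKM in COPD model libraries, with an overlap of BMSC-treated 3 and COPD model 1 (-1.10 ± 0.47; limma adjusted p = 0.375; -0.56 rescaled). Col4a3 and Lama3 were at most 0.795 and 0.499 FPKM in BMSC-treated libraries.

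**Figure D4:**
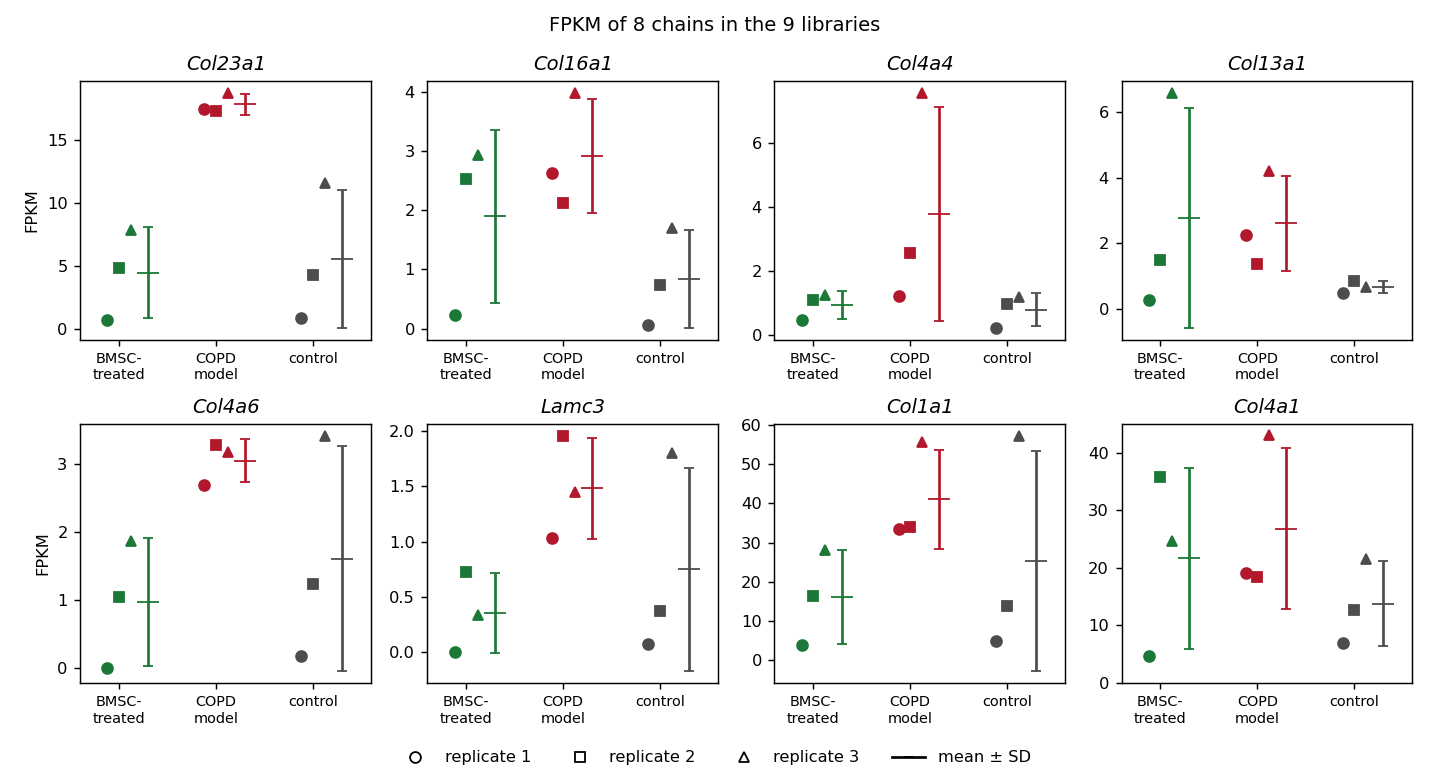
FPKM of 8 chains in each library (points; shape gives the replicate number) with the group mean and SD (bar). Col23a1 is at 17.3 to 18.8 FPKM in the COPD model and at most 11.6 FPKM elsewhere; in Col4a4 the COPD model mean is carried by replicate 3; in Col4a1 the BMSC-treated and COPD model libraries overlap.

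Col1a1 had 4.03, 16.4 and 28.1 FPKM in BMSC-treated libraries, against 33.6, 33.9 and 55.6 FPKM in COPD model libraries. These did not overlap, also after rescaling, and the log2 difference was -1.58 ± 0.79 (limma adjusted p = 0.375), or -0.71 rescaled. Its partner Col1a2, at 1.83, 13.4 and 27.2 FPKM in BMSC-treated libraries, overlapped with the COPD model through BMSC-treated 3 (-1.39 ± 0.79, or -0.60 rescaled). Lamb2, at 0.499, 5.93 and 7.69 FPKM in BMSC-treated libraries, lay just under the lowest COPD model library, 7.81 FPKM (-1.27 ± 0.69), while Lamb1 overlapped (-1.17 ± 0.67). Rescaled, both overlapped, at -0.67 for Lamb2 and -0.59 for Lamb1.

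For several chains the lower mean rested on BMSC-treated 1 or on the scaling. Col4a1 had 4.58, 35.8 and 24.6 FPKM in BMSC-treated libraries, against 19.1, 18.3 and 43.1 FPKM in COPD model libraries. Of its 3 BMSC-treated values 2 exceeded 2 of the 3 COPD model values, and the log2 difference of -0.57 ± 0.77 became 0.30 after rescaling and 0.25 without BMSC-treated 1. For Col4a2 the log2 difference of -0.45 ± 0.76 became 0.41 and 0.33. Col6a1 (-0.85 ± 0.75) and Col6a2 (-0.66 ± 0.67) became 0.15 and 0.065 without BMSC-treated 1, and Col18a1 (-0.30 ± 0.43), Col13a1 (-0.25 ± 0.50) and Col8a1 (-0.10 ± 0.54) became 0.088, 0.17 and 0.40 after rescaling. The remaining named chains, Col8a2, Col14a1, Col16a1 and Col15a1, had log2 differences of -1.10, -0.94, -0.57 and -0.68, and of these Col15a1 alone did not overlap. Rescaled, these were -0.50, -0.51, -0.14 and -0.34, and Col15a1 overlapped too; Col16a1 was at -0.042 without BMSC-treated 1 and control 1.

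BMSC-treated and control lungs were then set side by side. Of the 31 chains 22 had a higher and 9 a lower mean in BMSC-treated libraries, with a median log2 difference of 0.13, and of -0.10 over all tested genes. No chain was called by limma (0% of genes), none reached p 0.05 before adjustment (0.28% of genes were higher and 0.127% lower with 1.5-fold) and none had groups without overlap (0.178% of genes higher and 0.382% lower). After rescaling none met the p rule (1.42% of genes higher, 0.587% lower), and 1 chain lay wholly above control, with none below (2.89% and 2.69% of genes). The lowest p belonged to Col13a1, at 0.265, 1.49 and 6.59 FPKM in BMSC-treated and 0.489, 0.849 and 0.670 FPKM in control libraries. BMSC-treated 3 was far above the other libraries, and the log2 difference was 0.79 ± 0.50 (limma adjusted p = 0.9999). Col16a1 had 0.231, 2.53 and 2.94 FPKM in BMSC-treated and 0.0643, 0.744 and 1.70 FPKM in control libraries (0.59 ± 0.49). Col6a3, the third collagen VI chain, and Lama4, an alpha chain of vessels and smooth muscle, had differences of 0.52 ± 0.58 and 0.43 ± 0.51. Rescaled, Col13a1, Col16a1, Col6a3 and Lama4 stood at 0.77, 0.74, 0.59 and 0.52. Leaving out BMSC-treated 1 gave 3 chains past the p rule and 8 without overlap. Shares of all genes in that fit are not given, so these counts do not single out the chains. Without BMSC-treated 1 and control 1, 1 chain passed the p rule, where 471 genes in all did. Then 8 chains did not overlap, where 2217 genes in all did not. Array quality weights called 10 of the 31 chains and 1472 of the 11765 tested genes.

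Chains were also set against each other within a library, and 13 pairs were compared by a two-sided exact permutation test whose smallest possible p is 0.1. The test used log2 ratios after adding a pseudocount of 1 to each FPKM, so its result depends on the scaling, while the ratios printed here are plain FPKM ratios, which do not. In BMSC-treated against COPD model libraries, 4 of the 13 ratios separated the groups completely, each at an exact permutation p of 0.1 (adjusted over the 13 ratios, p = 0.325). Without the pseudocount 1 of the 4 no longer did, and 2 of the 4 are described here. Lama4 to Lama5, the vascular against the more widespread alpha chain, was 1.95, 0.639 and 0.594 in BMSC-treated libraries, against 0.393, 0.185 and 0.294 in COPD model libraries and 1.84, 0.265 and 0.370 in control libraries. It was higher in every BMSC-treated library than in any of the COPD model, and highest in the first library of the BMSC-treated and control groups. There both chains were low. Lama4 and Lama5 stood at 0.479 and 0.246 FPKM in BMSC-treated 1 and at 0.553 and 0.300 FPKM in control 1, all under 1 FPKM.

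Col4a1 to Col1a1, basement membrane against fibrillar collagen, was 1.14, 2.18 and 0.876 in BMSC-treated libraries, against 0.570, 0.540 and 0.775 in COPD model libraries and 1.40, 0.926 and 0.377 in control libraries. Each BMSC-treated ratio was above each COPD model ratio, and the controls spanned both. The log2 difference of the tested ratios, with the pseudocount of 1, was 1.01. With 1 library left out of either group, the smallest p such a test allows is 0.2.

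**Figure D5:**
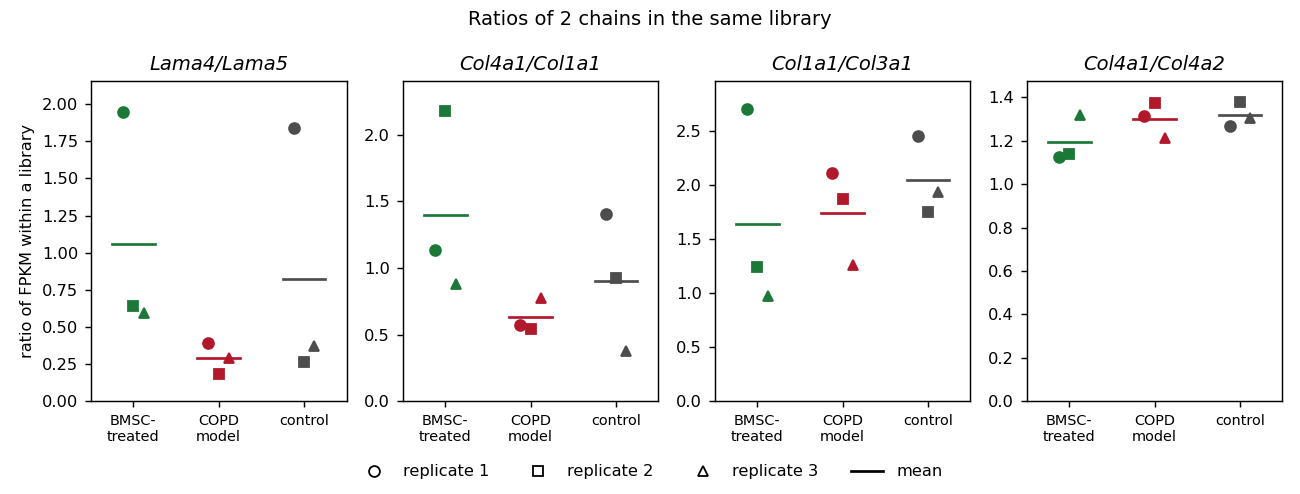
FPKM ratio of 2 chains within each library (points; line, group mean), on axes from 0. Lama4/Lama5 and Col4a1/Col1a1 are higher in each BMSC-treated library than in each COPD model library, while Col4a1/Col4a2 stays between 1.13 and 1.38 in all 9.

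A few pairs of chains kept a similar proportion in all libraries. Over the 406 pairs of the 29 tested chains above 0 in every library, the SD of the log2 ratio of plain FPKM across the 9 libraries ran between 0.11 and 1.71 with a median of 0.79. Col4a1 and Col4a2, which form one trimer, were the closest pair: their ratio was 1.13 to 1.38 in every library. Their genes lie head to head on chromosome 8 (11198423-11312889 and 11312805-11449287, GRCm38.p6), overlapping by 85 bases at their starts; whether the counting used strand is not given in the sources used here. Col1a2 and Col3a1, on chromosomes 6 and 1, were next with an SD of 0.21 and a ratio of 0.892 to 1.35, followed by Col6a1 and Col6a2, neighbours on chromosome 10 and chains of one trimer, with an SD of 0.27. A low SD describes the pair and was given no test.

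Other neighbours had higher SDs. Col4a4 and Col4a3, which overlap by 114 bases at their starts on chromosome 1, had an SD of 0.55. Col3a1 and Col5a2, 24.6 kb apart on chromosome 1, had 0.96, above the median of all pairs. That SD rested largely on control 1, where Col5a2 stood at 0.0454 FPKM and the ratio was 43.8. It therefore does not show that this pair varied more than others where both chains were well above 0. Col4a6, whose upstream stretch is printed above with that of its neighbour Col4a5, was listed at 0 in BMSC-treated 1, so that pair has no such SD.

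The genes that make, bind or degrade these chains were read from 5 lists. Their counts and differences are given on unscaled FPKM alone, as are the values of all genes beside them. In COPD model against control, limma called none of them at an adjusted p under 0.05. By the looser rule 2 of 23 tested collagen processing genes were higher, 3 of 14 basement membrane partners, 1 of 11 collagen and laminin receptors, 2 of 8 turnover genes and 2 of 14 TGF-beta ligands and matrix targets, where all genes gave 6.36%. List medians of the log2 difference were 0.91, 0.89, 1.04, 1.29 and 0.85 in the same order, beside 0.66 for all genes. The lowest p values were those of Bmp1, the procollagen C-proteinase (1.32 ± 0.54), and Plod2, a collagen lysyl hydroxylase (1.27 ± 0.57), in processing, and of Mrc2, an endocytic collagen receptor (1.39 ± 0.54), and Timp3, a metalloproteinase inhibitor (1.64 ± 0.80), in turnover. Npnt, a basement membrane integrin ligand, had 1.79 ± 0.77 and Smoc2, a matricellular protein, 1.26 ± 0.61, the collagen receptor Ddr1 1.58 ± 0.69 and the laminin receptor Bcam 1.47 ± 0.79, the ligand Tgfb2 1.37 ± 0.61 and tenascin C (Tnc) 0.85 ± 0.38. Each of these had an adjusted p of 0.514 by limma.

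In BMSC-treated against COPD model, limma again called none of the 5 lists' genes, and the values here are likewise unscaled. By the p rule 5 processing genes, 1 partner, 1 receptor, 3 turnover genes and 2 of the TGF-beta list were lower, beside 10.8% of all genes. Eln, the elastin gene, had the lowest p of the 5 lists, with a log2 difference of -2.15 ± 0.71 (limma adjusted p = 0.375) and no overlap of the groups. Adamts2, which removes the N-propeptide of fibrillar procollagen, had -1.33 ± 0.55 and Plod2 -1.31 ± 0.57, the collagen-degrading protease Ctsk -1.78 ± 0.77 and the gelatinase Mmp2 -1.31 ± 0.63. Smoc2 had -1.52 ± 0.61 and the fibulin Fbln2 -0.76 ± 0.38, the integrin alpha subunits Itga3 and Itga7, which bind laminins, -1.44 ± 0.72 and -0.75 ± 0.41, and the TGF-beta receptor Tgfbr1 -1.23 ± 0.59. Each had an adjusted p of 0.375 by limma. Between BMSC-treated and control libraries 1 of these genes met the p rule, Tnc (0.77 ± 0.38; limma adjusted p = 0.9999).

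Markers of the cells that make these chains differed between the libraries as well. In bulk lung, fewer cells of a type and less RNA per cell cannot be told apart. The summed FPKM of 10 fibroblast markers (the list's 12 without Col13a1 and Col14a1) was 18.5 to 229 in BMSC-treated, 120 to 211 in COPD model and 35.8 to 157 in control libraries; of these Lum was listed at 0 in at least 1 library. The 9 smooth muscle and pericyte markers summed to 51.6 to 495 in BMSC-treated, 408 to 1101 in COPD model and 91.3 to 528 in control libraries. The 6 endothelial markers summed to 21.0 to 166 in BMSC-treated, 90.8 to 251 in COPD model and 51.5 to 114 in control libraries. The 6 alveolar type 1 markers, cells that lie on the collagen IV of the alveolus, summed to 142 to 298 in BMSC-treated, 365 to 692 in COPD model and 178 to 303 in control libraries, and to 235 to 480, 279 to 494 and 214 to 422 after rescaling. Rescaled, the fibroblast markers summed to 62.4 to 181 in BMSC-treated, 91.6 to 150.5 in COPD model and 68.9 to 131 in control libraries. In the same order, smooth muscle and pericyte markers gave 174 to 568, 317 to 840.5 and 96.2 to 441. Endothelial markers gave 69.2 to 190, 69.3 to 179.5 and 76.8 to 122. Rescaled, the groups overlapped in each of these sums, but not in every other marker list. Club and ciliated markers gave 26062 to 41307 in BMSC-treated, 1.15e+05 to 1.94e+05 in COPD model and 15903 to 85495 in control libraries. Leukocyte markers gave 20.2 to 53.7, 5.84 to 10.3 and 11.2 to 20.95 in the same order. None of these markers was at 0 throughout, and the part of cell make-up in the chain values was not tested. Of 9 cartilage markers 7 were not analysed here, and the remaining 2 summed to at most 3.89 FPKM.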

How the data were processed

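The 9 mRNA libraries of mouse lung (1.5 µg of total RNA, oligo dT enrichment and a stranded kit, per the labels' protocols) came as 1 gene table of FPKM values, deposited by the authors. The submitters' processing notes name FastQC, cutadapt, StringTie, Bowtie and the build mm10. Versions and roles are not given there, nor whether counting used strand. FPKM are not counts, so the depth is unknown and no counting interval is given.

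From these values log2(FPKM + 1) was tested with limma 3.58.1 (R 4.3.3; mean-variance trend, 9 libraries fitted together) for genes at 1 FPKM or more in at least 3 libraries, with Benjamini-Hochberg adjustment over all tested genes and a threshold of 0.05. The fit was checked on simulated data, with noise drawn separately for each gene. In the real libraries many genes shifted together, so that check does not vouch for the p-values here. Chain ratios used exact permutation tests (scipy 1.17.1, Python 3.11.15). The members and lists were chosen with earlier results of these data known. Full values are given for the 4 chains of smallest p in each comparison and the 2 of highest mean in each subclass, and for the 2 genes of smallest p of each pathway list; other chains are named where they are partners of these, and were chosen after their values were seen. One chain is counted in the totals and not reported here by name. Alternatives were a pseudocount of 0.1, no filter, 2 other scalings, no trend, array quality weights, fits of 2 groups, a replicate block and left-out libraries. Chosen after seeing the data were ratios without a pseudocount (also for the closest pairs) and a block over BMSC-treated and control libraries alone.

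Replicate numbers come from the titles. Same-numbered BMSC-treated and control libraries deviated together over all tested genes (r = 0.63, 0.19 and 0.50), and those of the COPD model and control (r = -0.017, 0.18 and -0.17) or BMSC-treated and COPD model (r = 0.046, -0.055 and -0.10) did not. Differently numbered BMSC-treated and control libraries ran from r = -0.58 to 0.31. BMSC-treated 2 was as close to control 3 (r = 0.19) as to control 2, so the numbers do not establish a pairing.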

Additional observations from a re-analysis of the deposited data

How the results depend on the processing

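FPKM shift with library make-up, and 3 libraries a group leave the counts below loose. With 1 library left out, chains past an unadjusted p of 0.05 and 1.5-fold numbered 1 to 21 in COPD model against control, 1 to 20 in BMSC-treated against COPD model and 0 to 3 in BMSC-treated against control. Chains without overlap numbered 7 to 29, 8 to 20 and 0 to 8, and no chain was called. Shares of all genes in these left-out fits are not given, so the counts do not single out the chains. With all 9 libraries, 23.7% of all genes lay wholly higher in COPD model against control. In BMSC-treated against COPD model, 31% lay wholly lower. Counts over all genes in the same setting, in either direction, are in brackets below. In COPD model against control, the 7 chains past p 0.05 and 1.5-fold became 4 with a pseudocount of 0.1 (248 genes). They became 3 with equal sums outside Scgb1a1 and the mitochondrial genes (460), with median ratios (442) or without the trend (404). With only the 2 groups fitted they were 11 (1342). Array quality weights gave 24 (5317), with 28 called (7497). With equal sums 4 chains did not overlap (1275). In BMSC-treated against COPD model, the 6 became 2 with a pseudocount of 0.1 (518). They became 1 with equal sums (793), with median ratios (749) or without the trend (1016). Weights gave 15 (5572), with 17 called (7305). The 8 without overlap became 4 with equal sums (2389) and 5 with median ratios (2373). In BMSC-treated against control, the 0 became 1 with median ratios (251) or without control 1 and BMSC-treated 1 (471). Weights gave 13 (1518), with 10 called (1472). Chains without overlap became 1 with equal sums (645), 3 with median ratios (728) and 8 without those 2 libraries (2217). The cause was not tested.

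With the replicate block, 23 chains passed the p rule in COPD model against control, where 3830 genes in all did. In BMSC-treated against COPD model 17 chains passed it, where 5318 genes in all did. In both, same-numbered libraries did not deviate together. In BMSC-treated against control the replicate block gave 0, and 1 when fitted on those 6 libraries (348 genes in all passed), and none was called. The titles give numbers alone, so whether same-numbered libraries belong together is unknown.

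The log2 ratio of summed basement membrane chains, COPD model over control, became -0.16 as a share of chain FPKM. Of 737 alternatives for 41 single-chain differences, 37 reversed. In BMSC-treated against COPD model, with equal sums, median ratios, weights and without the 2 libraries, in that order, Col4a1 gave 0.30, 0.43, 0.73 and 0.25, Col4a2 0.41, 0.54, 0.94 and 0.33, and Col8a1 0.40, 0.46, 0.76 and 0.43. Col13a1 gave 0.17, 0.24 and, without the 2 libraries, 0.34. Col18a1 gave 0.088 with equal sums and 0.083 without them, Col6a1 0.037 with median ratios and 0.15 without them, and Col6a2 0.11 and 0.065. Col16a1 gave 0.070 with weights. Col8a1 in COPD model against control gave -0.24, -0.31, -0.12 and -0.068. With 1 library left out, the reversing ranges in BMSC-treated against COPD model were -1.11 to 0.25 for Col4a1, -1.01 to 0.33 for Col4a2, -1.60 to 0.15 for Col6a1, -1.22 to 0.065 for Col6a2, -0.74 to 0.083 for Col18a1, -0.48 to 0.43 for Col8a1 and -0.95 to 0.34 for Col13a1, with single values of 0.038 for Col8a1 and 0.052 for Col13a1 without COPD model 3. They were -0.068 to 0.42 for Col8a1 in COPD model against control and -0.069 to 1.19 for Col6a3 in BMSC-treated against control. All other alternatives kept the direction, and with weights 33 of the 41 passed an adjusted p of 0.05, of which Col4a1, Col4a2 and Col8a1 in BMSC-treated against COPD model did so with the sign turned. A chain that no longer passed the filter gave no value.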
